A study of Homo sapiens with 20 samples.

Results

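Zinc handling was followed through 7 genes: the metallothioneins MT2A, MT1E, MT1X and MT1G, the zinc exporter SLC30A1, the zinc importer SLC39A10 and the zinc-sensing transcription factor MTF1. They are 7 of the 26485 gene rows, matched by symbol, and all 7 were present in both deposited tables. The metallothionein rows were chosen by measured values as well as by name: only rows that did not carry near-equal reads across neighbouring rows were taken, and MT1X was taken although it lies beside such rows. The changes under Nutlin-3a and under the peptide were also known when the genes were selected, so the values below describe these genes and are not independent support for any direction. All 7 passed the filter on low values, which asks for 0.5 RPM on average, where RPM is reads per 1000000 reads that fall in gene rows.

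The study asked how a stapled peptide alters the response to Nutlin-3a. The peptide is made to keep p53 off Mediator, a coactivator between transcription factors and RNA polymerase II, and Nutlin-3a releases p53 from its ubiquitin ligase MDM2. HCT116, an established cell line from a colorectal carcinoma that keeps wild-type p53, was electroporated in every condition, and nuclear RNA was depleted of ribosomal RNA and sequenced as directional libraries. The control cells received water and stood for 3 hours in 0.1% DMSO. The Nutlin-3a cells received water and stood in 0.1% DMSO with 10 µM Nutlin-3a. The DMSO peptide cells were electroporated with 10 µM peptide, with a further 200 nM in the medium, and the last condition had both peptide and Nutlin-3a. Each of the 4 conditions had 2 libraries in experiment 1 and 3 in experiment 2, which gives 5 per condition. The labels do not say that replicates came from separate cultures, so p-values measure the spread between these libraries, which may be technical. All libraries came from 1 cell line, and the labels name no metal treatment in any condition.

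Metallothioneins are small cysteine-rich proteins that bind zinc and copper and buffer the free metal in the cell. MTF1 is a zinc finger protein that binds metal response elements when zinc is high and switches on metallothionein genes and SLC30A1, which moves zinc out of the cytosol. SLC39A10 brings zinc in from outside the cell, and MTF1 is known to hold this gene down when zinc is high. In cultured epithelial cells, metallothionein transcripts are a common readout of metal and stress signalling.

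Promoter sequences are shown first because metal response elements are what links most of these genes to MTF1. Of the 7 genes, 5 matched a promoter in the RefSeq table of build GRCh38.p14, namely MT2A, MT1X, SLC30A1, SLC39A10 and MTF1. The windows searched were the 250 bases before the RefSeq start, on both strands, for the metal response element core written as TGCACNC and TGCGCNC, of which a position can match only 1. Capitals mark the matches, and a match on the other strand is capitalised where it lies.
MT2A, chr16:56608334-56608583, plus strand: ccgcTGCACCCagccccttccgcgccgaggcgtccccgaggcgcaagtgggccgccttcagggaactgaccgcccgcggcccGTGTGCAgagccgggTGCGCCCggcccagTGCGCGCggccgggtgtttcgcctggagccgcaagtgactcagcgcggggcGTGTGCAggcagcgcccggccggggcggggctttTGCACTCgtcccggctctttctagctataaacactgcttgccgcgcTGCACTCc
MT1X, chr16:56682220-56682469, plus strand: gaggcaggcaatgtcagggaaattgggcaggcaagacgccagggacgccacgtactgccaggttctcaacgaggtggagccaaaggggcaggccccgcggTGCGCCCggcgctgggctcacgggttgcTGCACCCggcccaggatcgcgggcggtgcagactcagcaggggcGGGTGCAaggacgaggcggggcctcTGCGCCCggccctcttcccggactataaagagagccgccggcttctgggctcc
SLC30A1, chr1:211579162-211579411, minus strand: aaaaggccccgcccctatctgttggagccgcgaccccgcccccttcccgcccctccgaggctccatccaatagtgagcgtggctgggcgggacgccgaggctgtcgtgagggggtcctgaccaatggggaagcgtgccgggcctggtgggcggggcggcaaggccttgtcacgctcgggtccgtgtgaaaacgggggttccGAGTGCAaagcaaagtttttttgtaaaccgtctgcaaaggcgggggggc
MT2A held 7 matches, 5 on its own strand and 2 on the other, and the last lay 8 to 2 bases before the start. MT1X held 4, and SLC30A1 held 1, on the other strand 49 to 43 bases before the start. No match was found in the windows of SLC39A10 or MTF1, which says only that these letters are not in those windows. Of 35116 promoter windows of the same length, 24.8% held at least 1 match, 0.37% held at least 4 and 0.0313%, which is 11 windows, held at least 7. The matches are a description of sequence and were not tested as binding sites.

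**Figure D1:**
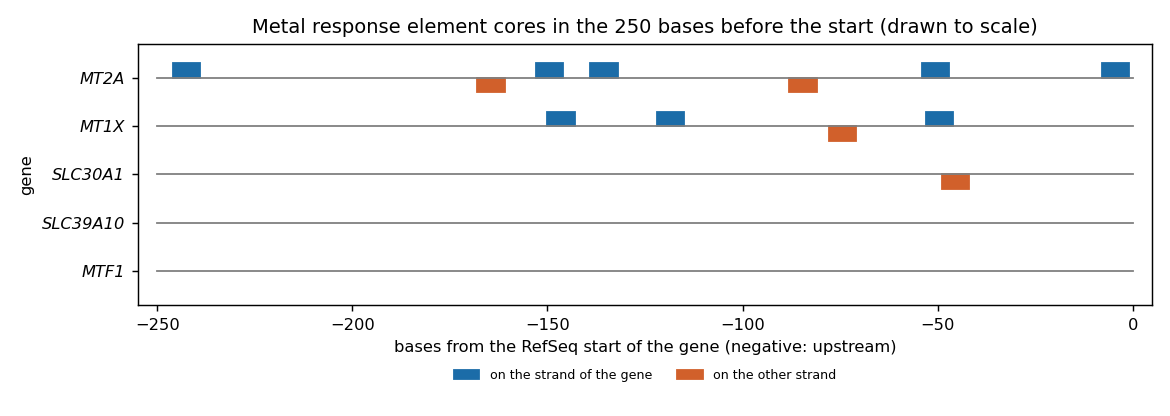
Position of metal response element cores (boxes) in the 250 bases before the RefSeq start of 5 genes, with distance in bases on the horizontal axis and 1 line per gene. MT2A shows 7 boxes, MT1X 4 and SLC30A1 1, and the lines of SLC39A10 and MTF1 are empty.

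The rows that were counted lie on build hg38. MT2A is on chromosome 16 from 56608566 to 56609354, MT1E from 56625673 to 56626971 and MT1X from 56682470 to 56684049, all on the plus strand, and MT1G lies between the last pair from 56666735 to 56667993 on the minus strand. SLC30A1 is on chromosome 1 from 211575039 to 211578612 and MTF1 on the same chromosome from 37809567 to 37857658, both on the minus strand. SLC39A10 is on chromosome 2 from 195657128 to 195735041 on the plus strand. Each row is a single interval of 1 RefSeq isoform, the same in both tables, and whether intronic reads were counted in it is not given in the sources used here. The row of SLC30A1 lies inside the RefSeq gene, which runs from 211571568 to 211579161. No other row of the tables overlaps a row of the 7 genes. In the GENCODE annotation MT1X shares its 1580 bases with AC026461.1 on the same strand, SLC39A10 overlaps the small RNA pseudogene RNU6-915P and MTF1 overlaps the pseudogene AL929472.4, both on the opposite strand, and reads of these cannot be told apart without knowing how strand was counted.

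MT2A and MT1E were the most abundant of the 7 genes per length, and MT1G was well below them. In RPM per kilobase of row span, a level averaged over the 20 libraries, MT2A stood at 456 ± 232 (SD, n = 20) and MT1E at 157 ± 79.3. MT1X followed at 36.0 ± 28.9 and SLC30A1 at 22.4 ± 8.96. MT1G stood at 3.35 ± 2.29, MTF1 at 1.18 ± 0.180 and SLC39A10 at 0.387 ± 0.109. Most steps in this order held in all 20 libraries. MT1X and SLC30A1 were not separated, with MT1X above in 11 of 20, and MT1G was above MTF1 in 17 of 20. The row spans include introns, which are long in SLC39A10 (77914 bases) and MTF1 (48092 bases) and short in the metallothioneins (789 bases in MT2A).

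In RPM, metallothionein levels averaged higher in experiment 2 than in experiment 1. Between the tables, which were normalized separately, the mean RPM in experiment 2 was 2.62 times that in experiment 1 for MT2A, 2.70 times for MT1E, 2.76 times for MT1G and 3.25 times for MT1X. For SLC30A1 the ratio was 1.64, for SLC39A10 1.01 and for MTF1 0.999. In RPM without scaling, every library of experiment 2 lay above every library of experiment 1 for MT1E, while the other genes overlapped. The share of all genes separated in this way was not counted. The tests below divide RPM by a scaling factor of each library, 0.685 to 0.926 in experiment 1 and 1.01 to 1.24 in experiment 2. Scaled, MT1E was higher in the second Nutlin-3a water library of experiment 1 (135 RPM, factor 0.685) than in the first of experiment 2 (168 RPM, factor 1.11). The gap in MT1E thus did not hold after scaling. Ratios of scaled levels would be lower for every gene and were not computed. These ratios are a description without a test, since library preparation and experiment cannot be told apart. Structural RNA rows made up between 22.4% and 37.2% of a library in experiment 1, against 2.40% to 6.14% for experiment 2, and their part in the ratios was not tested.

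The depth of a library was between 36717795 and 63896604 reads in experiment 1, and between 18787172 and 47407746 in experiment 2. Epithelial markers were abundant (mean 256 RPM for EPCAM and 1383 RPM for KRT8) and 4 of 5 leukocyte markers averaged 0.0142 to 0.175 RPM, with PTPRC at 0.0272, while CD14 averaged 1.96 RPM (0 to 6.45). Of the fibroblast markers COL1A1 was at 31.9 RPM with COL1A2 at 0.00105 RPM. The second Nutlin-3a water library of experiment 1 stood apart, with the highest share of structural RNA, 37.2%. As a check of p53 activation, CDKN1A, the cell cycle inhibitor p21, was higher under Nutlin-3a than under DMSO with water in 5 of 5 same-numbered pairs, by 1.18 on the log2 scale (SE 0.29, unadjusted p = 0.000655, adjusted p = 1.00, limma). MDM2 was higher in 5 of 5 pairs, by 0.96 (SE 0.53). With the replicate number as a block the limma adjusted p was 0.0754 for CDKN1A and 0.0674 for MDM2, so neither was called. For peptide against water with Nutlin-3a, the CDKN1A pairs gave -1.46 and -1.86 in experiment 1 and -0.13, -0.08 and -0.11 in experiment 2. The MDM2 pairs gave -1.40 and -0.81, then -0.06, 0.01 and -0.04. These peptide differences were thus near 0 in experiment 2. In bulk RNA, fewer cells of a kind and less RNA per cell cannot be told apart.

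The stretch of chromosome 16 that holds the metallothioneins held neighbouring rows with near-equal numbers of reads. In 18 of 20 libraries, at least 1 pair of neighbouring rows among MT1M, MT1JP, MT1A, MT1DP, MT1B, MT1F, MT1H and MT1IP held 100 or more reads each and differed by less than 10%. These 8 rows are among those that the selection left out. Next to MT1X, the pseudogene row MT1IP held 702 to 7452 reads in 7 libraries and 0 to 18 in the other 13. Of the 7 libraries, 0 were DMSO water, 3 DMSO peptide, 2 Nutlin-3a water and 2 Nutlin-3a peptide. In them MT1IP reached 44.8% to 92.9% of the reads of MT1X, against at most 1.33% in the others. The larger row adjacent to MT2A held 1.01% to 27.9% of its reads (median 3.90%) and that adjacent to MT1E 1.72% to 48.9% (median 17.4%), against a median of 0.344% for MT1IP and MT1X.

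**Figure D2:**
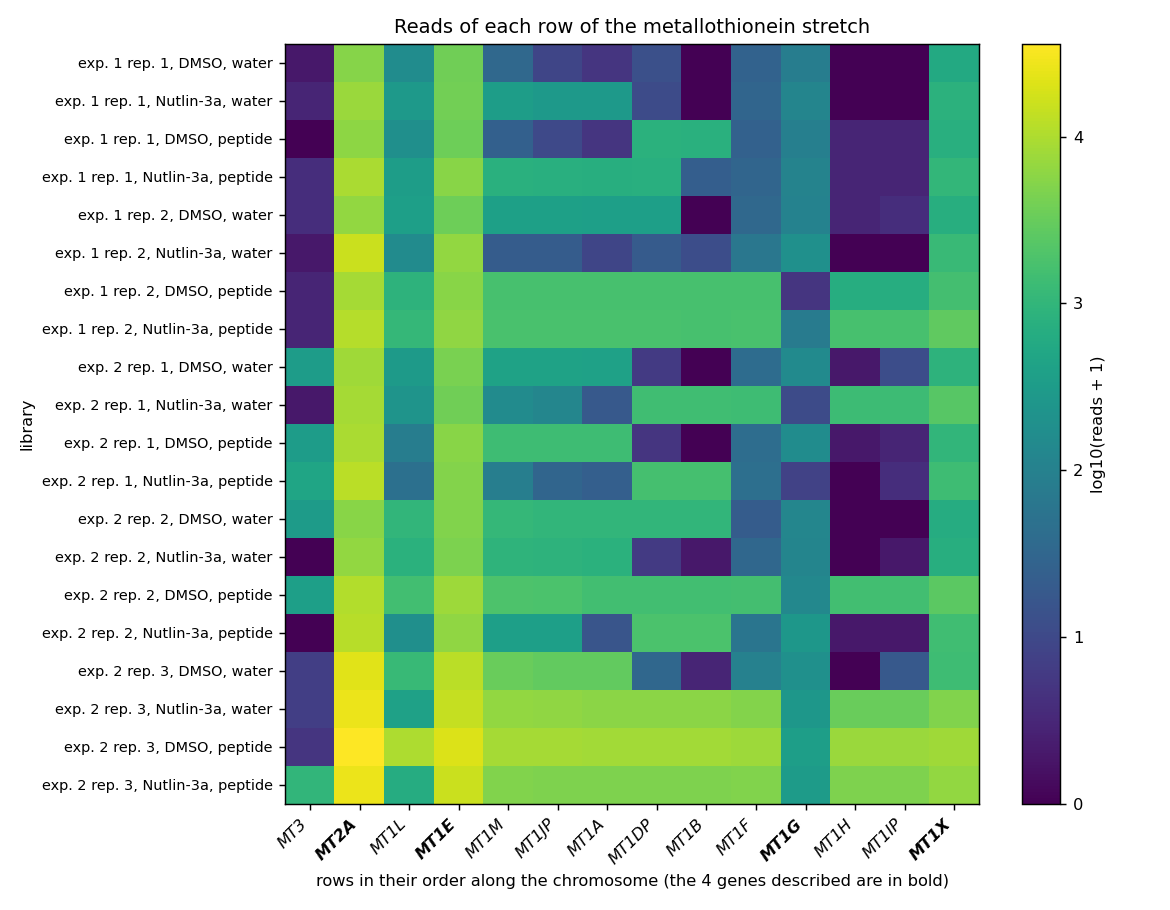
Reads (log10 of reads + 1, colour) of 14 metallothionein rows in chromosome order (columns) in each of the 20 libraries (rows), with the 4 genes described in bold. Runs of 1 colour across neighbouring columns are the near-equal rows seen in 18 of 20 libraries, and MT2A and MT1E stand above them.

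Across the 4 comparisons the main test called no gene of the set. It was limma on log2(scaled RPM + 0.5) with condition and experiment as terms, adjusted by Benjamini and Hochberg over 15958 genes, and a call is an adjusted p under 0.05. It called 0 genes in each comparison (0.0%), with or without the replicate number as a block. Without adjustment, p was under 0.05 for 0.589% of genes in Nutlin-3a against DMSO with water, and 1 of the 7 genes, MT1X, was among them. The shares were 0.501% in peptide against water with Nutlin-3a, with 0 of the 7, and 0.0877% in peptide against water with DMSO, with 1 of the 7, again MT1X. In Nutlin-3a against DMSO with peptide the share was 0.163%, with 0 of the 7. In the blocked fit the shares were 7.27%, with SLC30A1 and MT1X among them, 8.24% with none of the 7, 1.12% with MT1X, and 1.82% with none. limma-voom without the block called 0 genes in each comparison, and limma-voom with the block, added after the data were seen, called 15, 3, 0 and 16 genes, with SLC30A1 among the 15 and none of the 7 among the others. The comparisons share libraries, so their values are not independent of each other. The Nutlin-3a water libraries are the treated side of Nutlin-3a against DMSO with water and the control side of peptide against water with Nutlin-3a. Likewise, the DMSO peptide libraries are the treated side of peptide against water with DMSO and the control side of Nutlin-3a against DMSO with peptide. Such sharing pushes the differences of the comparisons concerned in opposite directions. Below, the level of each gene, and any overlap or order of libraries, is in RPM without scaling, while the log2 differences use scaled RPM.

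**Figure D3:**
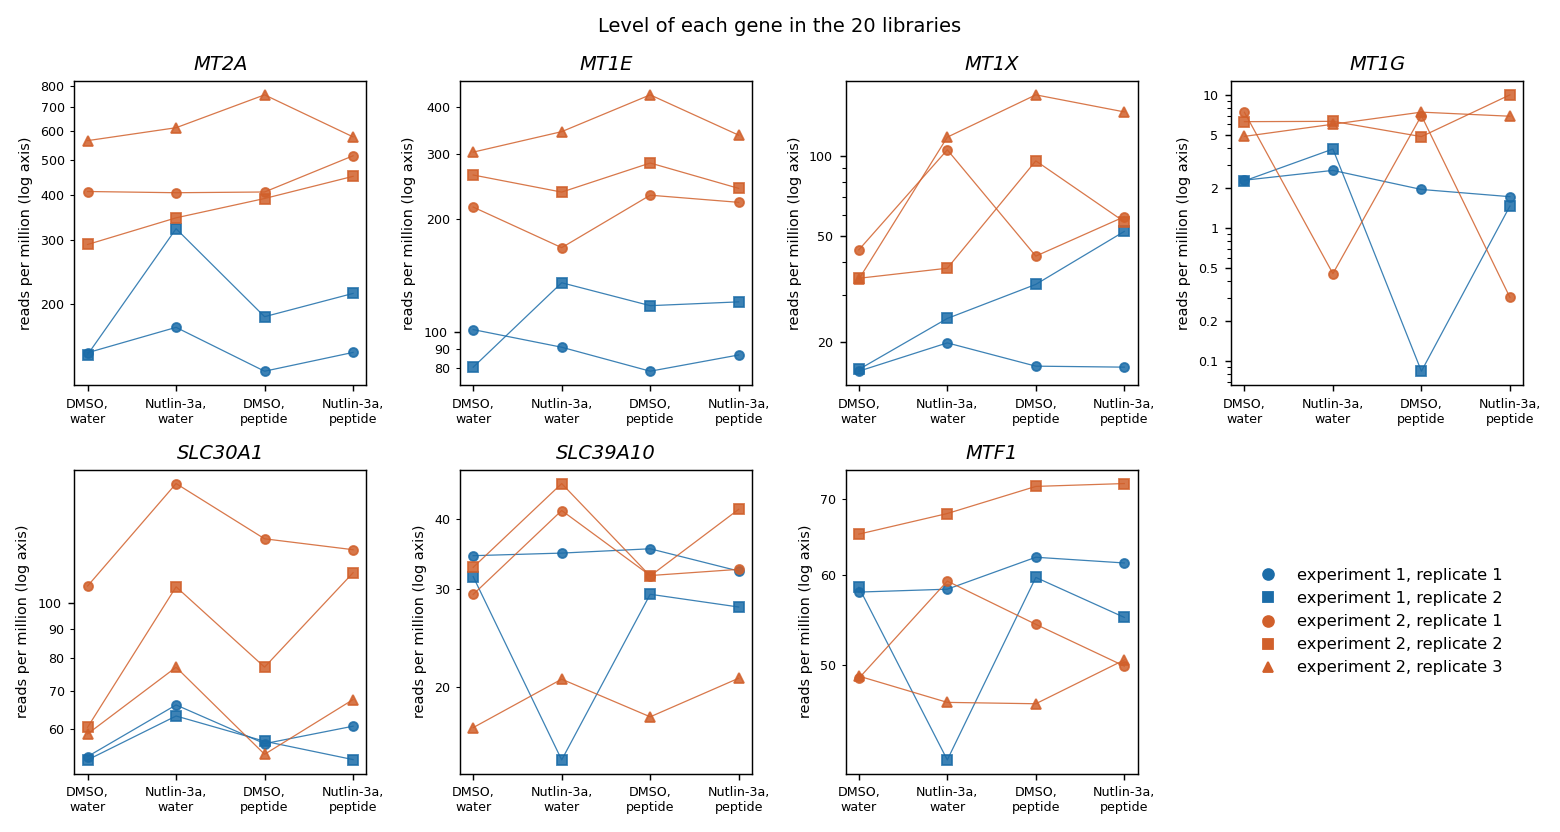
Level of each of the 7 genes in RPM (vertical log axis, separate for each gene) in the 4 conditions (horizontal axis), with 1 line per same-numbered set of libraries. SLC30A1 is higher with Nutlin-3a than with DMSO in water in all 5 sets, and MT1G drops to 0.0842, 0.302 and 0.455 RPM in 3 libraries.

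MT2A, the most abundant metallothionein of the set, was higher with Nutlin-3a than with DMSO in the water libraries of experiment 1 and overlapped between conditions in experiment 2, and it was not called in any comparison. In experiment 1 it stood at 146 and 144 RPM in DMSO water and at 172 and 322 in Nutlin-3a water. With peptide it was at 130 and 184 under DMSO and at 147 and 213 under Nutlin-3a. The Nutlin-3a water libraries did not overlap with the DMSO water libraries, and the second of them, the one that stood apart, was the highest of experiment 1. A gap between 2 and 2 libraries can arise without a difference between conditions. The share of all genes with such a gap was not counted, here or for the genes below. In experiment 2 MT2A stood at 409, 292 and 566 RPM in DMSO water and at 406, 346 and 614 in Nutlin-3a water. With peptide it was at 408, 391 and 757 under DMSO and at 514, 450 and 579 under Nutlin-3a. All conditions overlapped there, and the replicate 3 libraries were the highest of each condition. The log2 difference of Nutlin-3a against DMSO with water was 0.38 (SE 0.27, 95% interval -0.18 to 0.95, 4 of 5 pairs higher). With the replicate block the interval was -0.0015 to 0.76 (limma unadjusted p = 0.0508, adjusted p = 0.673). From 8 group means with the block, experiment 1 gave 0.89 (0.42 to 1.35, limma unadjusted p = 0.000872, adjusted p = 0.108) and experiment 2 gave 0.04 (-0.34 to 0.42). In that fit 4729 of 15958 genes had an unadjusted p under 0.05 in experiment 1 and 1867 in experiment 2. The genes called numbered 60 and 0. Without the library that stood apart the MT2A difference over both experiments was 0.09. Peptide against water gave -0.03 with Nutlin-3a (-0.60 to 0.53) and 0.23 with DMSO (-0.34 to 0.79), and Nutlin-3a against DMSO with peptide gave 0.12 (-0.45 to 0.68).

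MT1E, a metallothionein next along the chromosome, overlapped between conditions in both experiments. In experiment 1 its 2 libraries stood at 101 and 80.2 RPM in DMSO water, 90.8 and 135 in Nutlin-3a water, 78.3 and 117 in DMSO peptide and 86.6 and 120 in Nutlin-3a peptide. In experiment 2 the 3 libraries stood at 216, 263 and 303 RPM, then 168, 237 and 344, then 232, 284 and 432, and then 222, 242 and 337, in the same order of conditions. The differences on the log2 scale were 0.08 for Nutlin-3a with water (95% interval -0.40 to 0.57), 0.04 for peptide with Nutlin-3a (-0.45 to 0.52), 0.20 for peptide with DMSO (-0.28 to 0.69) and -0.08 for Nutlin-3a with peptide (-0.57 to 0.40). The first became -0.13 without the second Nutlin-3a water library of experiment 1. With the reads of the larger adjacent row taken off, an alternative added after the data were seen, peptide with DMSO became -0.04 and Nutlin-3a with peptide 0.12.

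MT1X carried the highest differences of the set, and these moved with the reads of its neighbour. In experiment 1 it stood at 15.6 and 15.8 RPM in DMSO water, 19.9 and 24.6 in Nutlin-3a water, 16.3 and 33 in DMSO peptide and 16.1 and 52.1 in Nutlin-3a peptide. In experiment 2 it stood at 44.4, 34.7 and 34.5 RPM in DMSO water and at 105, 37.9 and 117 in Nutlin-3a water. With peptide it stood at 42.1, 95.7 and 169 under DMSO and at 59.1, 56.6 and 146 under Nutlin-3a. The DMSO water libraries lay below all others in experiment 1. In experiment 2 they overlapped with Nutlin-3a water and DMSO peptide but lay below all 3 Nutlin-3a peptide libraries. The log2 difference was 0.85 for Nutlin-3a against DMSO with water (SE 0.40, 95% interval 0.01 to 1.68, 5 of 5 pairs higher, limma unadjusted p = 0.0464, adjusted p = 1.00). It was 0.97 for peptide against water with DMSO (0.14 to 1.81, 4 of 5 pairs higher, limma unadjusted p = 0.0242, adjusted p = 1.00). Peptide with Nutlin-3a gave 0.17 (-0.66 to 1.00) and Nutlin-3a with peptide 0.04 (-0.79 to 0.87).

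The reads of MT1X beyond those of MT1IP gave another picture. They amounted to 15.6 to 24.6 RPM in the 8 libraries of experiment 1 and 12 to 59.0 RPM in the 12 of experiment 2. The 12 RPM was the third DMSO peptide library of experiment 2, where MT1IP held 7452 reads and MT1X 8023, a difference of under 10%, and this was the library with the highest MT1X row. With the reads of MT1IP taken off, the log2 differences were 0.30 for Nutlin-3a with water (SE 0.29), 0.09 for peptide with Nutlin-3a, -0.18 for peptide with DMSO and 0.58 for Nutlin-3a with peptide (limma unadjusted p = 0.0608, adjusted p = 1.00). The sign of peptide with DMSO thus turned. The third DMSO peptide library of experiment 2 had the widest gap to its same-numbered DMSO water library, 12 RPM against 34. The other DMSO peptide libraries stood at 16.2 and 18.2 RPM in experiment 1 and at 42 and 40.3 in experiment 2. Their same-numbered DMSO water libraries stood at 15.6, 15.7, 43.8 and 34.7 RPM. The 12 RPM library also enters the difference for Nutlin-3a with peptide, and neither difference was computed without it. Whether the same reads were counted in the rows of MT1X and MT1IP was not tested.

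**Figure D4:**
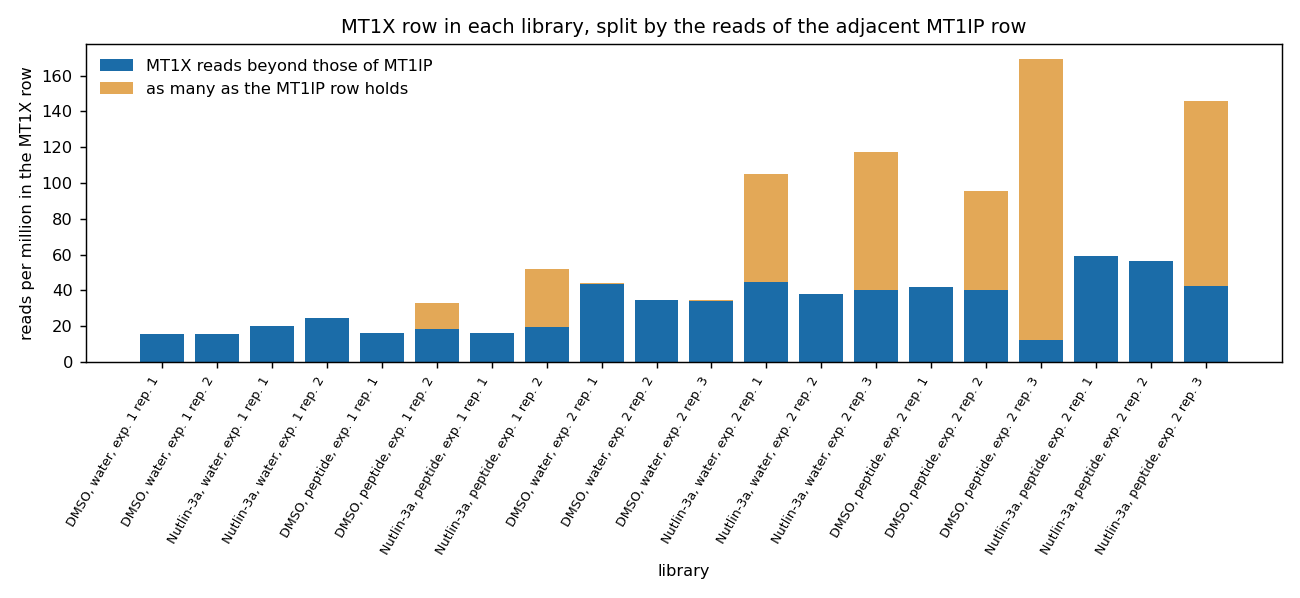
RPM of the MT1X row (bar height) in each of the 20 libraries, split into as many reads as the adjacent MT1IP row holds (light) and the reads beyond them (dark). The 7 bars with a visible light part include the 3 tallest, at 169, 146 and 117 RPM.

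MT1G, a metallothionein on the opposite strand from the others, was the least abundant of the 4 and the least precise. It stood at 2.29 and 2.26 RPM in DMSO water, 2.71 and 3.92 in Nutlin-3a water, 1.95 and 0.0842 in DMSO peptide and 1.72 and 1.46 in Nutlin-3a peptide of experiment 1. In experiment 2 it stood at 7.41, 6.30 and 4.88 RPM in DMSO water and at 0.455, 6.33 and 6.03 in Nutlin-3a water. With peptide it stood at 7.0, 4.86 and 7.42 under DMSO and at 0.302, 10.0 and 6.92 under Nutlin-3a. In 3 libraries the row held 4, 10 and 7 reads, against 78 to 352 in the other 17, and these 3 come from 3 conditions. In the 7 libraries where the flanking rows MT1F and MT1H held at least 700 reads, MT1G held 4 to 352, and the 3 of them with the most MT1F reads (4854, 5108 and 7588) also held the most MT1G reads (315, 255 and 352). These 3 are replicate 3 libraries of experiment 2, which were deep (45533490, 42318001 and 47407746 reads). In RPM, MT1G stood at 6.92, 6.03 and 7.42 in them, within the 0.302 to 10.0 of experiment 2. The libraries with 4 and 10 MT1G reads were also among the 7, with 1690 and 1361 MT1F reads, while the rest of the 7 held 78 to 352. In the library with 7 MT1G reads, MT1F held 46, but MT1DP held 1612 and MT1B 1605. The second Nutlin-3a peptide library of experiment 2 held 1835 and 1830 in these rows beside 259 MT1G reads. The log2 differences were -0.33, -0.25, -0.46 and -0.12 in the order used above, each with an SE of 0.67, and no interval excluded 0.

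SLC30A1, the exporter, was higher with Nutlin-3a than with DMSO in every pair of water libraries. In experiment 1 it stood at 53.8 and 53 RPM in DMSO water and at 66.3 and 63.4 in Nutlin-3a water, and these did not overlap. In experiment 2 it stood at 107, 60.5 and 58.9 RPM in DMSO water and at 162, 107 and 77.2 in Nutlin-3a water, which overlap because replicate 1 was high in both. The 5 pair differences were 0.32, 0.62, 0.46, 0.74 and 0.37 on the log2 scale. A difference above 0 in 5 of 5 pairs was seen for 3.07% of the 15958 genes in this comparison, and for 2 of the 7 genes, SLC30A1 and MT1X. The mean difference was 0.50, which is 1.42-fold on that scale (SE 0.27, 95% interval -0.07 to 1.07, limma adjusted p = 1.00). With the replicate number as a block the same difference had an SE of 0.09 and an interval of 0.31 to 0.70 (limma unadjusted p = 3.79e-05, adjusted p = 0.0674).

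The call on SLC30A1 depended on the test. limma-voom with the block, added after the data were seen, gave 0.50 with an adjusted p of 0.0495 and called it, and 0.094% of genes were called there. Without the library that stood apart the blocked difference was 0.45, with a limma adjusted p of 0.0652. Each experiment alone gave 0.51 and 0.52. Over 35 alternative settings the difference ran from 0.34 to 0.67 and the adjusted p from 0.0495 to 1.00.

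With peptide, SLC30A1 stood at 56.6 and 57.2 RPM under DMSO and 60.8 and 53.1 under Nutlin-3a in experiment 1. In experiment 2 it stood at 130, 77.2 and 54.3 RPM under DMSO and 124, 113 and 67.7 under Nutlin-3a. In RPM without scaling, DMSO and Nutlin-3a overlapped within the peptide cells in both experiments. In experiment 1 the RPM of the Nutlin-3a peptide libraries lay below that of the Nutlin-3a water libraries, and in experiment 2 they overlapped. The scaling factors in experiment 1 were 0.893 and 0.882 (DMSO peptide), 0.824 and 0.787 (Nutlin-3a peptide) and 0.914 and 0.685 (Nutlin-3a water). Scaled, Nutlin-3a peptide lay above DMSO peptide there and overlapped with Nutlin-3a water. The pair differences were 0.22 and 0.06 in the former and 0.03 and -0.45 in the latter. Nutlin-3a against DMSO with peptide gave 0.17 (95% interval -0.40 to 0.74, 4 of 5 pairs higher), against the 0.50 with water. Peptide against water gave -0.17 with Nutlin-3a (-0.74 to 0.40, 3 of 5 pairs lower) and 0.16 with DMSO (-0.41 to 0.73, 4 of 5 pairs higher). In the blocked fit the first of these peptide differences had an interval of -0.37 to 0.03. Whether Nutlin-3a acted differently with and without peptide was not tested.

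**Figure D5:**
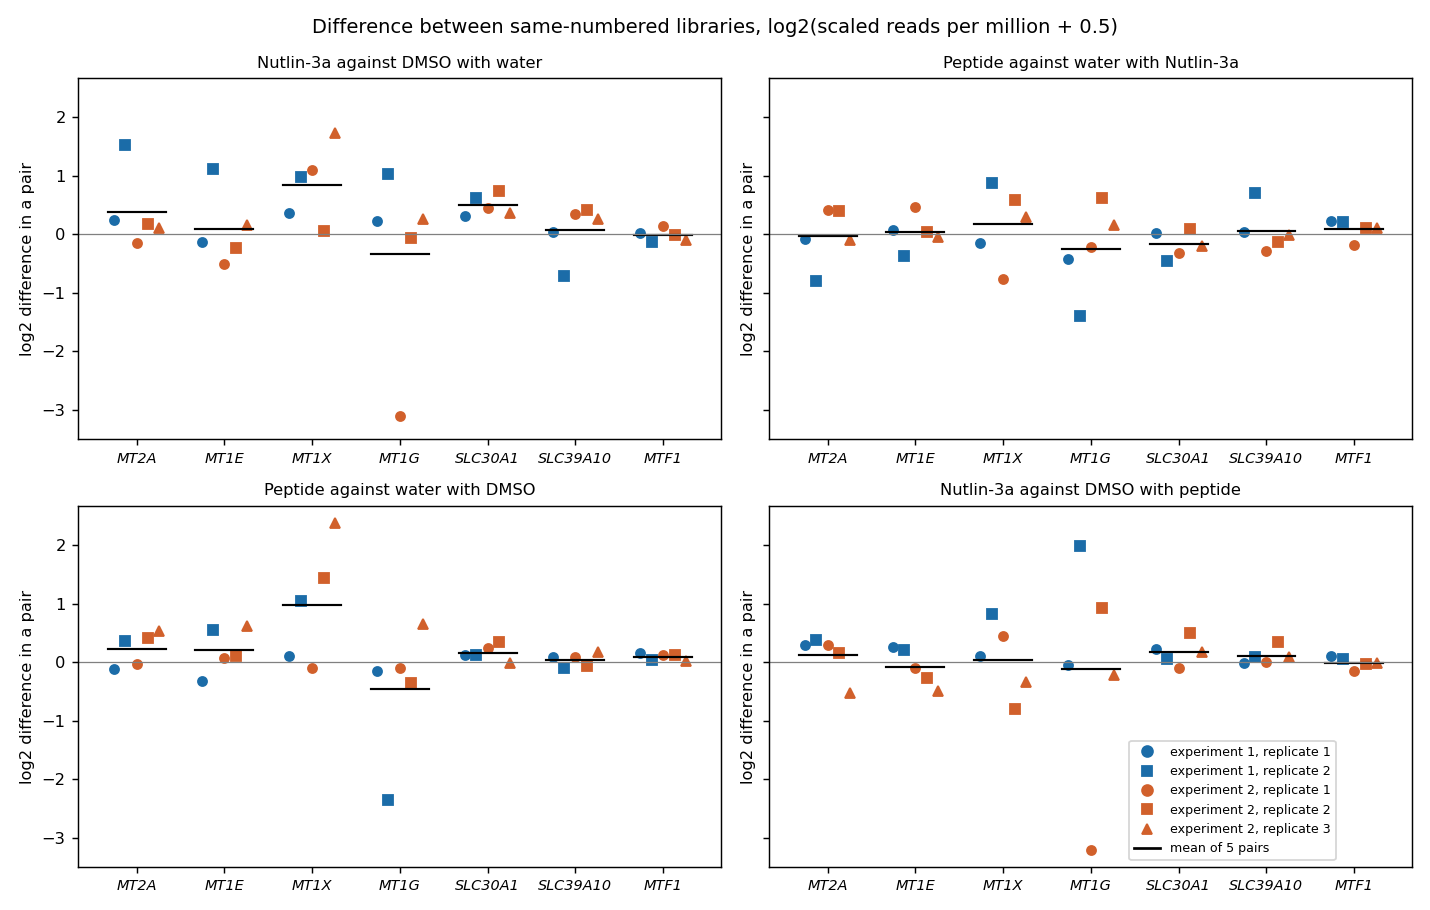
Difference of log2(scaled RPM + 0.5) between same-numbered libraries (points) for the 7 genes in the 4 comparisons, with the mean of 5 pairs as a line and 0 marked. In Nutlin-3a against DMSO with water, the 5 points of SLC30A1 lie between 0.32 and 0.74, while those of MT2A run from -0.15 to 1.53.

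SLC39A10, the importer, overlapped between conditions in both experiments. In experiment 1 it stood at 34.4 and 31.5 RPM in DMSO water, 34.7 and 14.8 in Nutlin-3a water, 35.4 and 29.3 in DMSO peptide and 32.3 and 27.8 in Nutlin-3a peptide. The 14.8 RPM was again the library that stood apart and the lowest of the 20 in RPM without scaling. Its scaling factor was 0.685, and scaled SLC39A10 was lower in the third DMSO water library of experiment 2 (16.9 RPM, factor 1.21). In experiment 2 SLC39A10 stood at 29.3, 32.8 and 16.9 RPM in DMSO water, 41.4, 46.3 and 20.6 in Nutlin-3a water, 31.7, 31.6 and 17.7 in DMSO peptide and 32.5, 41.6 and 20.7 in Nutlin-3a peptide. Replicate 3 was the lowest in each condition. Nutlin-3a against DMSO with water gave 0.07 (95% interval -0.54 to 0.69, 4 of 5 pairs higher), and 0.25 without the library that stood apart. It was -0.30 in experiment 1 alone and 0.34 in experiment 2 alone. The other differences were 0.06 for peptide with Nutlin-3a (-0.55 to 0.68), 0.04 for peptide with DMSO (-0.58 to 0.65) and 0.10 for Nutlin-3a with peptide (-0.51 to 0.71).

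MTF1, the regulator, varied least relative to its mean in RPM without scaling, from 41.3 to 72.3 RPM over the 20 libraries. Its lowest value was in the library that stood apart, with the scaling factor of 0.685. In experiment 1 it stood at 58.0 and 58.6 RPM in DMSO water, 58.3 and 41.3 in Nutlin-3a water, 62.3 and 59.8 in DMSO peptide and 61.5 and 55.1 in Nutlin-3a peptide. In experiment 2 it stood at 48.7, 65.2 and 48.9 RPM in DMSO water, 59.3, 68.0 and 46.4 in Nutlin-3a water, 54.3, 71.9 and 46.3 in DMSO peptide and 49.9, 72.3 and 50.6 in Nutlin-3a peptide. The replicate 2 libraries were the highest of experiment 2 in every condition. Nutlin-3a against DMSO gave -0.01 with water (95% interval -0.35 to 0.32) and -0.01 with peptide (-0.35 to 0.32). Peptide against water gave 0.09 with Nutlin-3a (-0.24 to 0.43) and 0.09 with DMSO (-0.24 to 0.43). The last was above 0 in 5 of 5 pairs, as for 6.86% of all genes in that comparison.

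Whether a difference was unlike between the experiments was tested with limma on 8 group means. No gene of the 7 was called in any of the 4 comparisons (adjusted p = 1.00 throughout), where 0, 0, 1 and 1 of all genes were called. With the replicate block the calls were 3, 52, 1 and 6 genes, again with none of the 7. The lowest blocked adjusted p values were 0.0969 for SLC39A10 (0.69 higher in experiment 2) and 0.0974 for MT2A (-0.85), both in Nutlin-3a against DMSO with water.

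Other genes of metal handling were read as lists. For Nutlin-3a against DMSO with water, the median log2 difference was 0.08 over the 7 genes and -0.02 over all genes tested. Of 11 other metallothioneins, 10 were tested, and 0 were called in any comparison by limma with or without the block. Their medians were 0.26 for Nutlin-3a with water, 0.36 for peptide with Nutlin-3a, 1.87 for peptide with DMSO and -0.88 for Nutlin-3a with peptide, and most of these rows are the ones with near-equal reads. MT1F, for example, gave 2.21 (SE 1.42) for Nutlin-3a with water and 3.11 (SE 1.42) for peptide with DMSO. MT1B gave 3.98 (SE 1.73) in the latter and MT1DP 3.15 (SE 1.56) for peptide with Nutlin-3a.

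Other zinc transporters showed differences near 0. Of 9 other exporters 6 were tested, with medians of 0.01, 0.06, 0.04 and 0.02 in the same order of comparisons, and of 13 other importers 10 were tested, with medians of 0.06, -0.01, 0.04 and -0.01. None was called. SLC39A13, an importer of the same family as SLC39A10, is named for its smallest p. It was higher with Nutlin-3a in 5 of 5 water pairs, as were 3.07% of all genes, by 0.27 (SE 0.14, limma adjusted p = 1.00). With peptide under Nutlin-3a it was lower in 5 of 5 pairs by -0.27 (SE 0.14). Both differences use the same Nutlin-3a water libraries, so they are not separate observations. Of 13 genes of copper and iron handling 12 were tested, with 0 called and medians of 0.01, 0.08, 0.04 and 0.01. SOD1, the copper and zinc superoxide dismutase, also named for its smallest p, was lower with Nutlin-3a in 5 of 5 water pairs by -0.24 (SE 0.22). The share of all genes lower in 5 of 5 pairs was not counted, here or for SLC39A13.

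The 7 listed genes of metal and oxidative stress were all tested, and 0 were called. Of the 7, all lay above 0 in Nutlin-3a against DMSO with water (median 0.13), where 7184 of 15958 genes did, and in peptide against water with DMSO (median 0.13), where 10039 did. These comparisons share the DMSO water libraries. In peptide against water with Nutlin-3a 5 of 7 lay above 0 (9663 of all genes), and in Nutlin-3a against DMSO with peptide 4 of 7 (7168 of all genes). HMOX1, the heme oxygenase induced by metals and oxidants, gave 0.41 (SE 0.27) for Nutlin-3a with water and 0.44 (SE 0.27) with peptide, at limma adjusted p = 1.00 for both.

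The genes whose pattern lay closest to each of the 7 were found by Pearson correlation over the 20 libraries, after the mean of the 4 same-numbered libraries was taken off. The libraries share depth and composition, so these are descriptions without a p. MT1X lay closest to its neighbours MT1F (r = 0.90), MT1H (0.89) and MT1IP (0.88). MT2A lay closest to SPSB2, C19orf52 and LINC01604 (each 0.90), and MT1E to MED11 (0.93), SPR (0.90) and RNASEH2A (0.90). SLC30A1 lay closest to PODXL (0.90), RNU6-26P (0.86) and TPP1 (0.86), and SLC39A10 to TMTC3 (0.97), TVP23B (0.96) and HS6ST2 (0.96). MTF1 lay closest to POLR2D, CSNK2A3 (each 0.90) and STARD7 (0.89), and MT1G, with the weakest likeness, to SNORA71E (0.80), MIR6821 (0.74) and DEDD2 (0.74). With only the mean of each experiment taken off, several of these values were much lower: 0.29 for HS6ST2, 0.31 for STARD7, 0.46 for PODXL, 0.52 for C19orf52 and TPP1 and 0.61 for SPSB2. Those of MT1X with its neighbours were 0.90 to 0.92. Among the 7 themselves, MT2A and MT1E were the most alike (0.78), and SLC39A10 ran opposite to MT1E (-0.65) and MT2A (-0.57). The Nutlin-3a water library that stood apart enters these values, which were not computed without it. Against its same-numbered DMSO water library its log2 differences were 1.53 for MT2A, 1.12 for MT1E and -0.71 for SLC39A10. Over the 5 pairs of that comparison SLC39A10 and MT2A were each higher in 4, and MT1E in 2.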

How the data were processed

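RNA of HCT116 nuclei was measured in 20 libraries, 5 in each of 4 conditions. Per the submitters' processing notes, HISAT2, bedtools, limma and build hg38 were used, while versions, the role of each tool and the handling of strand are not given in the sources used here. The deposited signal is, as its values show, the RPM of a row (out of 1000000 reads that fall in gene rows) over a divisor, which is stop less a thousandth of start. It is thus another unit than the RPM assumed in the design. Multiplying the deposited signal by that divisor gave columns summing to 1000000, and 100% of the values then came out as whole reads (tolerance 0.001). Each table had 26485 rows. The isoform was the same in both for 24994 symbols, the 7 genes included, and differed for 1491. Columns not mapped to a sample numbered 0.

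From there, RPM were scaled by a trimmed mean of M values (30% of log ratios and 5% of abundances trimmed), 0.5 was added and log2 taken. The 15958 genes that averaged 0.5 RPM or more were tested with limma 3.58.1 with a trend in R 4.3.3 over all 20 libraries, with condition and experiment as terms. Benjamini and Hochberg's adjustment ran over these genes. The script was tested on simulated data. Tables used Python 3.11.15 and pandas 2.3.3, and plots matplotlib 3.10.9. The members and gene lists were chosen with earlier results of these data known. Beside the 7 genes, the text names up to 2 genes per list and comparison by smallest p, the 3 most alike genes of each, CDKN1A and MDM2, and the metallothionein rows where near-equal reads are described. Intervals are from the fitted model, and the rows of the 7 genes held 4 to 35908 reads per library.

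No label pairs the libraries. After each condition's mean was taken off, libraries with the same number correlated over genes at 0.286 to 0.585 (12 pairs of libraries, experiment 1) and 0.877 to 0.940 (18 pairs, experiment 2), so a fit with the replicate number as a block was run beside the one with the experiment term. Alternatives were other library scalings, filters and pseudocounts, limma-voom, each experiment alone, the replicate block, no structural RNA rows, and each of the 20 libraries left out once. Chosen later, with the data in view, were the reads of the adjacent row taken off, with and without the block, limma-voom with the block, and the block without the second Nutlin-3a water library of experiment 1.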

Additional observations from a re-analysis of the deposited data

How the results depend on the processing

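Neither limma with the experiment term nor any of the alternatives that left out 1 library called any of the 7 genes, and SLC30A1 in Nutlin-3a against DMSO with water was called only by limma-voom with the replicate block (0.50, adjusted p = 0.0495, 1 of the 7 genes). Its adjusted p was 0.0674 in the limma fit with the replicate block, in which 0 genes were called in each of the 4 comparisons. Of 504 values under 15 settings other than leaving out 1 library, 29 turned in sign, and of 640 under the 20 libraries left out in turn, 46 did. None of the values that turned was called, and the cause was not tested. In Nutlin-3a against DMSO with water, 3 genes stayed above 0 under all 35 alternatives run, SLC30A1 at 0.34 to 0.67, MT1X at 0.30 to 1.10 and MT2A at 0.033 to 0.92.

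With experiment 1 alone, the median over the 7 genes was 0.53 in Nutlin-3a against DMSO with water, -0.21 in peptide against water with Nutlin-3a and 0.23 in Nutlin-3a against DMSO with peptide. In the first, MT1G became 0.64 and SLC39A10 -0.30. MT1E became -0.21 in the second and SLC39A10 -0.036 in peptide against water with DMSO. In Nutlin-3a against DMSO with peptide, MT1E became 0.23, MT1G 0.89 and MTF1 0.077. In experiment 1 alone 1 gene, none of the 7, was called in each of the 3 comparisons that involve the peptide, where fewer samples and genes entered.

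With experiment 2 alone, MT1E became -0.19 and MTF1 0.0046 in Nutlin-3a against DMSO with water. MT2A became 0.24, MT1G 0.20 and SLC39A10 -0.14 in peptide against water with Nutlin-3a, and MT1G 0.058 in peptide against water with DMSO. MT2A became -0.023 and MT1X -0.23 in Nutlin-3a against DMSO with peptide.

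Without a filter on low values 1 gene was called in Nutlin-3a against DMSO with peptide. There, MT1G became 0.0028 with limma-voom and 0.23 with limma-voom and the block, and MTF1 0.0061 with structural RNA rows left out. MT1G, with a mean of 4.22 RPM, had no value under the filter of 5 RPM. In the test of a difference between experiments, the replicate block called 3, 52 and 6 genes in Nutlin-3a against DMSO with water, peptide against water with Nutlin-3a and Nutlin-3a against DMSO with peptide, none of them among the 7.

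The following alternatives were chosen after the data were seen. With the reads of the adjacent row taken off, with or without the replicate block, MT1E became -0.039 and MT1X -0.18 in peptide against water with DMSO, and MT1E 0.12 in Nutlin-3a against DMSO with peptide. limma-voom with the replicate block called 15, 3 and 16 genes in Nutlin-3a against DMSO with water, peptide against water with Nutlin-3a and Nutlin-3a against DMSO with peptide. The replicate block without the second Nutlin-3a water library of experiment 1 called 5 genes in the first, where MT1E became -0.098 and MTF1 0.0061. In peptide against water with Nutlin-3a it gave 0.21 for MT2A, 0.23 for MT1G and -0.11 for SLC39A10.

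Leaving out each library in turn gave ranges of log2 differences that crossed 0 in Nutlin-3a against DMSO with water (-0.13 to 0.25 for MT1E, -0.69 to 0.28 for MT1G, -0.093 to 0.077 for MTF1 and -0.14 to 0.25 for SLC39A10). In peptide against water with Nutlin-3a they ran from -0.13 to 0.24 for MT1E, -0.85 to 0.35 for MT1G, -0.11 to 0.37 for MT1X, -0.19 to 0.25 for MT2A and -0.13 to 0.24 for SLC39A10. In peptide against water with DMSO they ran from -0.68 to 0.0802 for MT1G, -0.037 to 0.33 for SLC30A1 and -0.17 to 0.21 for SLC39A10, and in Nutlin-3a against DMSO with peptide from -0.23 to 0.071 for MT1E, -0.67 to 0.48 for MT1G, -0.24 to 0.32 for MT1X, -0.021 to 0.30 for MT2A, -0.10 to 0.076 for MTF1 and -0.075 to 0.28 for SLC39A10. The row of MT1G had the fewest reads of the 7, 4 to 352 per library.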
